A study of Mus musculus with 32 samples.

Results

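The effect of a miR-29a mimic on unstimulated BV-2 cells was measured by total RNA sequencing, as the 4 libraries labelled VEH_miR-29a against the 4 labelled VEH_scramble. These are 8 of the 32 libraries of the series, and all genes of the table were considered, so the choice of libraries used no expression value. BV-2 is an established mouse cell line of microglial origin, microglia being the macrophages that live in brain tissue. All 8 cultures received vehicle (VEH) for 24 h in place of lipopolysaccharide and were transfected with a mimic (a synthetic RNA duplex that delivers the mature microRNA) or with the scramble control. The labels place treatment before transfection and the study's methods give the opposite order. The labels number the replicates 1 to 4 in each group, call the line a glioblastoma line and also carry a mouse age, which has no meaning for a cell line and was not used. The study's methods describe replicates in this cell line as separate experiments, so p-values measure the spread between experiments in 1 line.

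MicroRNAs lower the stability and translation of messenger RNAs (mRNAs) by pairing, mostly through bases 2 to 8 of the mature strand (the seed), with complementary sites in the 3′ untranslated region (UTR). The miR-29 family is known for repressing collagen and other matrix genes, the DNA methyltransferases Dnmt3a and Dnmt3b, and DNA demethylation enzymes. Its reported targets also include the interferon receptor subunit Ifnar1 and the apoptosis regulator Mcl1.

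The mature family members are shown because all 3 carry 1 seed, so a site for miR-29a is also a site for miR-29b and miR-29c. Sequences are from RefSeq on GRCm38.p6, written 5′ to 3′, with the seed in capitals. The mature miR-29a-3p is encoded at chr6:31062673-31062694 on the minus strand.

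miR-29a-3p: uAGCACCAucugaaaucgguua

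miR-29b-3p: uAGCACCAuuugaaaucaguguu

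miR-29c-3p: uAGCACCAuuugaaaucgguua

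Sites were searched on the transcript strand of the 3′ UTR of 1 protein-coding transcript model per gene. That model was chosen by its rank in the annotation and then by the longest 3′ UTR. Site counts, and statements that a gene had or lacked an annotated 3′ UTR, hold for that model and not for other models of the gene. The letters searched were TGGTGCT, pairing with bases 2 to 8, and GGTGCTA, pairing with bases 2 to 7 followed by an A; TGGTGCTA holds both and was counted once, as an 8-base site. Of the 11757 genes tested, 10355 had an annotated 3′ UTR to search, and 15.8% had at least 1 site and 2.70% an 8-base site. The windows below are from GRCm38, with the matched letters in capitals. They belong to genes whose level was lower with the mimic by the test described further on, and the last window, from Tet2, to a gene with 5 sites that did not pass it.

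Ctsk, chr3:95509056-95509074, plus strand: tctcgtTGGTGCTtccagt

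Ctsf, chr19:4860806-4860824, plus strand: ttgcttTGGTGCTcctcgg

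Dnmt3a, chr12:3911399-3911418, plus strand: ggtagcTGGTGCTAgcacca

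Dnmt3a, chr12:3911468-3911487, plus strand: ccaagcTGGTGCTAattcct

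Tdg, chr10:82649671-82649690, plus strand: tttccaTGGTGCTAcagaca

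Cd93, chr2:148440843-148440862, minus strand: agttacTGGTGCTAattaca

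E330009J07Rik, chr6:40402361-40402380, minus strand: ttttttTGGTGCTAtataga

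Zfp568, chr7:30023725-30023744, plus strand: tctcatTGGTGCTAgaattc

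Atp9a, chr2:168634550-168634568, minus strand: accttgGGTGCTAagctgt

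Tet2, chr3:133465110-133465129, minus strand: tcacgaTGGTGCTAcccaga

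A match shows only that these letters stand in the window. The Ctsk site begins at base 140 of a 3′ UTR of 440 bases and the Ctsf site at base 347 of 453. Dnmt3a holds 6 sites in 6696 bases, of which the 2 shown are its 8-base sites.

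Library totals, in units of 1e6 estimated counts, were 3.91, 3.58, 5.93 and 9.73 in VEH_miR-29a replicates 1 to 4 and 6.16, 3.91, 4.70 and 9.70 in VEH_scramble. Small structural RNA genes (biotypes such as snRNA and snoRNA) took 9.30% ± 6.41 of the counts with miR-29a and 9.76% ± 2.26 with scramble (SD, n = 4 each; two-sided exact permutation p = 1, smallest possible 0.0286). VEH_miR-29a replicate 2 stood apart with 18.7%, so the main counts below are also given without it and its partner. Of the VEH_miR-7a libraries, used only in comparisons further on, 3 of 4 held 37.0% to 46.1% of such RNA, with totals of 1.21 to 3.00 in units of 1e6. Of 17 microglia and macrophage markers 14 were tested. The summed level of all 17 was 5552 to 5997 CPM (counts divided by the TMM-scaled library total in units of 1e6) with miR-29a and 6233 to 8475 with scramble. Single markers went both ways, as given further on. Sall1 and C1qa stayed below 1 CPM in all 8 libraries. All 7 astrocyte and glioma markers, 4 fibroblast markers and 4 neuron markers were below 1 CPM in each library, so the data go against the glioblastoma label. The same held for 2 of 3 endothelial markers and 1 of 3 oligodendrocyte markers, and no list of another cell type summed above 10.4 CPM. The level of the mimic itself was not measured here.

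Ctsk, which encodes the lysosomal and secreted collagen-degrading protease cathepsin K, was the 1 gene of 11757 called by limma-voom (0.00851%). A gene was called at a Benjamini-Hochberg adjusted p below 0.05 with an absolute log2 fold change above 0.3. An unadjusted p below 0.05 was given to 1220 genes (10.4%) without a block. Libraries of the same replicate number deviated together, so the same fit was also made with the replicate number as a block. It called 64 genes (0.544%), 34 lower (0.289%) and 30 higher (0.255%) with miR-29a. Its unadjusted p was below 0.05 for 2464 genes (21%), 1384 lower (11.8%) and 1080 higher (9.19%), and the list counts at that level below are to be read against these shares. A gene is said to have fallen or risen below where it passed this blocked fit, Ctsk being the gene that passed both. Of the 34 falls 30 had no overlap between the 4 libraries of each group, against 3.13% of all genes, and so did 19 of the 30 rises, against 2.87%. All 64 changed in 1 direction in 4 of 4 same-numbered pairs, as 28.6% of all genes did. The 64 genes were chosen by small p in a fit on the same pairs. Little overlap and a shared direction follow in part from that choice and are no further support.

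The number of calls depended on every library pair and on the tool. Without the block DESeq2 called 100 genes, limma-voom with all 32 libraries in 1 fit 80, and limma-trend after GC and length correction 29. The blocked fit called 0 genes without pair 1, 26 without pair 2, 9 without pair 3 and 3 without pair 4. Of the 26, 17 were among the 64. DESeq2 with the block called 288 genes, 186 lower (1.58%) and 102 higher (0.868%), which held 61 of the 64, and the edgeR quasi-likelihood test with the block called 23, all of them among the 64. Each of the 64 kept its direction in every one of these fits. Called genes other than the 12 largest falls, the 12 largest rises and the members of gene lists, and list members that were not called, are named below after their values were seen.

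**Figure D1:**
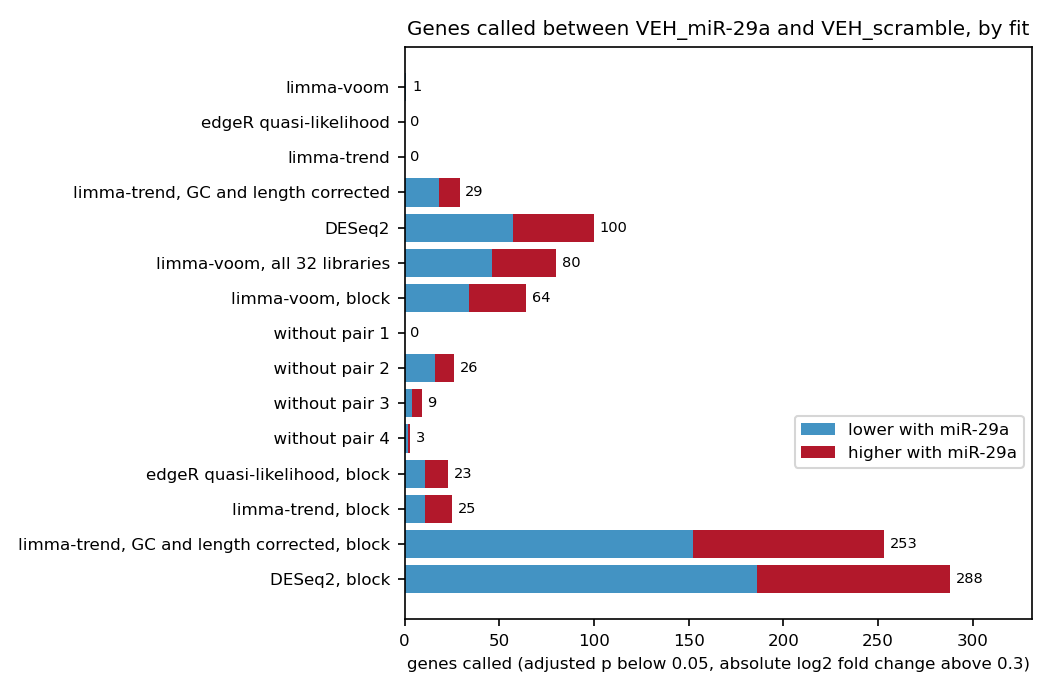
Genes called between VEH_miR-29a and VEH_scramble under 15 fits (bars, number of genes, split by direction). Without a block, 3 of the tools called 0 or 1 gene and DESeq2 100. All 32 libraries in 1 fit gave 80, and limma-trend after GC and length correction 29. The fits with the block ranged from 0 without pair 1 to 288 with DESeq2.

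Ctsk (ENSMUSG00000028111) was at 22.3, 17.9, 12.4 and 11.9 CPM in VEH_miR-29a replicates 1 to 4 and at 47.1, 47.2, 48.3 and 46.6 CPM in VEH_scramble. The scramble libraries were nearly alike, and each miR-29a library lay far below them. The log2 fold change was −1.66 (SE 0.21, adjusted p = 0.0406 by limma-voom) and −1.63 with the block (SE 0.17, adjusted p = 0.0129). With the block, the adjusted p was 0.0551 without pair 1 and 0.0721 without pair 4, and the change kept its sign. Without the block the call was lost on leaving out any 1 library other than VEH_miR-29a replicate 1, and also with the edgeR quasi-likelihood test and limma-trend.

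Ctsf (ENSMUSG00000083282), encoding the lysosomal protease cathepsin F, was at 114, 134, 123 and 101 CPM with miR-29a and at 194, 237, 242 and 210 CPM with scramble. The groups did not overlap. It fell, with a log2 fold change of −0.90 (SE 0.11, adjusted p = 0.0207 by blocked limma-voom; 0.11 without the block). Of the 16 tested cathepsin, legumain and cystatin genes, Ctsk and Ctsf fell by blocked limma-voom, against 0.289% of all genes, and none rose. With the block DESeq2 called 4 of the 16 lower, against 1.58% of all genes, and the edgeR quasi-likelihood test 2. Neither called any higher. At an unadjusted p under 0.05 with the block, 9 of the 16 were lower and 0 higher, against 11.8% and 9.19% of all genes. The 16 genes had a median log2 fold change of −0.41 and 13 lay below 0, against a median of −0.01 and 51.0% below 0 over all genes tested. After GC and length correction the median of the 16 was −0.23, with 14 below 0. Among those not called, Ctss, encoding the macrophage protease cathepsin S, had −0.63 (SE 0.21), Lgmn, encoding legumain, −0.48 (SE 0.16), Ctsd, encoding cathepsin D, −0.06 (SE 0.17), and Ctsl, encoding cathepsin L, 0.05 (SE 0.18). Ctsl has 3 seed sites, Ctsk and Ctsf 1 each, and Ctss, Lgmn and Ctsd none. The summed microglia and macrophage markers were also lower with miR-29a, as given above, and their part in this result was not tested. Of the 14 tested markers 10 lay below 0 and 4 above, with a median of −0.19, and 0 were called without or with the block. In bulk libraries of 1 line, a change in some cells and a smaller change in all cells cannot be told apart.

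Dnmt3a (ENSMUSG00000020661), encoding a de novo DNA methyltransferase, was at 171, 205, 196 and 239 CPM with miR-29a and at 329, 444, 290 and 393 CPM with scramble. Every miR-29a library was below every scramble library. Dnmt3a fell, with a log2 fold change of −0.84 (SE 0.12, adjusted p = 0.0366 by blocked limma-voom), while the fit without the block gave 0.156. It overlaps the antisense gene Dnmt3aos, and counting by strand is not stated, so the reads of both genes cannot be told apart.

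Tdg, the thymine DNA glycosylase that removes oxidised methylcytosine during demethylation, was at 26.2, 17.3, 21.7 and 19.2 CPM with miR-29a and at 49.6, 29.8, 29.1 and 34.4 CPM with scramble. The groups did not overlap, although the highest miR-29a library came within 3 CPM of the lowest scramble library. Tdg fell, with a log2 fold change of −0.76 (SE 0.13, adjusted p = 0.0496 by blocked limma-voom; 0.289 without the block). It overlaps Glt8d2 on the other strand, and it has 3 sites.

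The other enzymes that write or erase DNA methylation did not pass the test. Dnmt3b had a log2 fold change of −0.67 (SE 0.25) with 2 sites and overlapping groups. Tet3, a methylcytosine dioxygenase, had −0.64 (SE 0.19) and no annotated 3′ UTR to search, and Tet2, of the same family, −0.21 (SE 0.16) with 5 sites. Tet1 had at most 3 counts in any of the 8 libraries and was not tested. Of the 16 tested genes of DNA methylation 2 fell, against 0.289% of all genes, and the median was −0.06, in a range of −0.13 to −0.02 over 10 settings. The blocked fit called 0 of them without pair 2, as did the edgeR quasi-likelihood test with the block. DESeq2 with the block called 3 of them lower, against 1.58% of all genes. Dnmt3a and Tdg were not called in any of the 4 blocked fits with a pair left out. At an unadjusted p under 0.05 with the block 5 of the 16 were lower and 0 higher, against 11.8% and 9.19% of all genes.

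**Figure D2:**
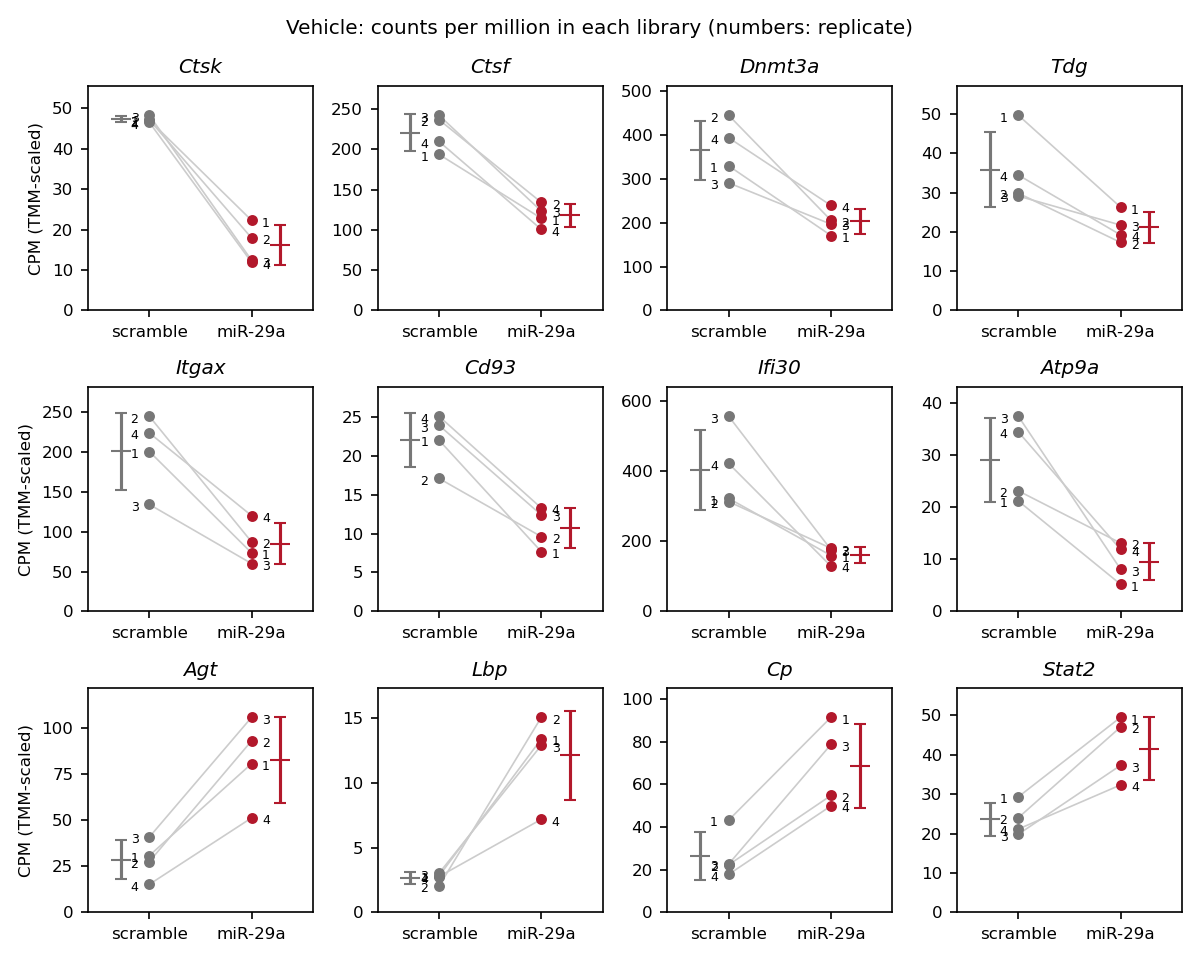
CPM (linear axis from 0) of 12 genes in each vehicle library, with scramble in grey and miR-29a in red; grey lines join libraries of the same replicate number, and the bars beside the points give the mean ± SD. For these 12 genes the libraries of the 2 groups do not overlap, as for Ctsk with 11.9 to 22.3 CPM against 46.6 to 48.3 CPM.

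Of the 34 genes that fell, 27 of which had an annotated 3′ UTR, 16 (47.1%) had at least 1 seed site and 8 (23.5%) an 8-base site, against 3 (10.0%) and 0 of the 30 that rose. Over all genes tested the shares were 15.8% and 2.70%. Among the calls of DESeq2 with the block, 50 of 186 falls (26.9%) and 12 of 102 rises (11.8%) had a site, and 20 of the falls (10.8%) and 1 of the rises an 8-base site. Without pair 2, 5 of 16 falls (31.2%) and 1 of 10 rises (10.0%) had a site, and 1 of the falls (6.25%) an 8-base site. The median 3′ UTR was 1338 bases among the falls with an annotated 3′ UTR and 1036 bases among all genes tested. The falls with an 8-base site were Dnmt3a, Tdg, Cd93, Zfp568, E330009J07Rik, Ccdc28b, Lsm11 and Asb11, while Ctsk and Ctsf had 7-base sites.

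E330009J07Rik, a gene whose product is little characterised, was at 43.3, 59.9, 59.0 and 74.6 CPM with miR-29a and at 118, 194, 121 and 180 CPM with scramble. Its log2 fold change with the block was −1.35 (SE 0.13, adjusted p = 0.0103 by limma-voom), and it has 2 sites, 1 of them of 8 bases. Atp9a, a phospholipid-flipping ATPase of endosomes, was at 5.20, 13.1, 8.09 and 11.9 CPM against 21.2, 23.2, 37.5 and 34.5 CPM. It fell, with a log2 fold change of −1.65 (SE 0.24, adjusted p = 0.0328 by blocked limma-voom), and has 1 site of the GGTGCTA kind. In both genes all 4 miR-29a libraries were below all scramble libraries.

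Cd93, encoding a C-type lectin receptor of myeloid and endothelial cells, was at 7.68, 9.60, 12.4 and 13.3 CPM with miR-29a and at 22, 17.1, 23.9 and 25.1 CPM with scramble. The groups did not overlap, and the log2 fold change with the block was −1.02 (SE 0.17, adjusted p = 0.0466 by limma-voom). Ccdc28b fell (log2 fold change −1.33) from 10.4 ± 3.16 to 4.05 ± 0.907 CPM (SD, n = 4), and it overlaps Tmem234 on the other strand. Zfp568, encoding a zinc finger repressor, fell (log2 fold change −0.97) from 67.6 ± 10.4 to 33.8 ± 3.90 CPM, with 2 sites of 8 bases. Lsm11, a protein of histone mRNA processing, fell (log2 fold change −0.89) with 4 sites, and Sept2, encoding the cytoskeletal GTPase septin 2, also fell (−0.60) with 3 sites.

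Other falls had no seed site, or no annotated 3′ UTR to search. Itgax, encoding the integrin CD11c of activated microglia and dendritic cells, was at 73.3, 87.1, 60.0 and 120 CPM with miR-29a and at 200, 245, 134 and 224 CPM with scramble. The groups did not overlap, and the log2 fold change with the block was −1.25 (SE 0.13, adjusted p = 0.0111 by limma-voom), with no site in its 3′ UTR. Ifi30, the thiol reductase GILT of lysosomal antigen processing, was at 159, 180, 176 and 129 CPM against 323, 313, 557 and 422 CPM. It fell, with a log2 fold change of −1.27 (SE 0.17, adjusted p = 0.0238 by blocked limma-voom), and overlaps 6330537M06Rik on the other strand. Ifi30 had no annotated 3′ UTR.

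Ms4a4a, encoding a macrophage membrane protein, fell (log2 fold change −2.12) at a low level, from 3.82 ± 1.73 to 0.924 ± 0.776 CPM (SD, n = 4), and it had no annotated 3′ UTR either. Atp6v0d2, a subunit of the lysosomal proton pump with no site in its 3′ UTR, was at 58.9, 64.0, 127 and 194 CPM against 94.2, 133, 258 and 282 CPM in replicates 1 to 4. Its groups overlapped and its level ranged widely over the replicate numbers, but each pair moved down. The log2 fold change with the block was −0.84 (SE 0.13, adjusted p = 0.0366 by limma-voom), against an adjusted p of 0.509 without it.

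The rest of the 12 largest falls were genes with less certain counts. Dynlt1a, a dynein light chain with near-identical copies and an overlapping gene on the other strand, fell (log2 fold change −1.82) and has 1 site. The histone gene Hist1h2ae, with reads that its paralogs could share, fell (log2 fold change −1.47). The small RNA gene Gm26323 fell (log2 fold change −3.01) with 0 to 1.49 CPM against 2.50 to 12.9 CPM, and the pseudogene Gm10293 fell too (−1.17). The mitochondrial ribosomal RNA mt-Rnr2 fell (log2 fold change −1.28) with overlapping groups. The libraries had been depleted of ribosomal RNA.

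Lbp, Hp, Agt and Cp were among the 12 largest rises. Agt, encoding angiotensinogen, was at 80.5, 92.8, 106 and 51.1 CPM with miR-29a and at 30.7, 27.5, 40.8 and 15.2 CPM with scramble. The groups did not overlap, and the log2 fold change with the block was 1.55 (SE 0.12, adjusted p = 0.00518 by limma-voom; 0.15 without the block). Lbp, encoding the lipopolysaccharide-binding protein, was at 13.4, 15.0, 12.9 and 7.18 CPM against 2.81, 2.03, 3.02 and 2.76 CPM. It rose by 2.02 on the log2 scale (SE 0.26, adjusted p = 0.0238 by blocked limma-voom), again with no overlap.

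Cp, encoding the copper-carrying ferroxidase ceruloplasmin, was at 91.4, 54.7, 78.6 and 49.9 CPM against 43.2, 22.3, 22.6 and 17.8 CPM. It rose by 1.40 (SE 0.13, adjusted p = 0.0103 by blocked limma-voom) and overlaps Hps3. Hp, encoding haptoglobin, which binds free haemoglobin, rose by 1.64 from 3.30 ± 1.40 to 9.95 ± 5.12 CPM. C3, the central complement component and a member of the list of inflammatory genes, had the smallest of the 30 rises and was at 455, 407, 290 and 199 CPM against 291, 256, 153 and 133 CPM. Its groups overlapped while each pair moved up, and it rose by 0.71 with the block (SE 0.12, adjusted p = 0.0462 by limma-voom). None of these 5 genes had a seed site.

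The other large rises were of genes with varied roles. Rab44, a large Rab GTPase, rose by 2.96 from 1.74 ± 1.59 to 11.5 ± 3.03 CPM (SD, n = 4) and has 1 site. Fam65b rose by 1.5 from 1.81 ± 0.505 to 5.14 ± 1.27 CPM, the septin gene Sept3 by 1.31, the receptor gene Cd300lg by 1.3 and the guanine deaminase gene Gda by 1.27. Klhl30 was at 41.4, 58.3, 43.6 and 40.9 CPM against 14.8, 27.8, 22.6 and 15.4 CPM, without overlap, and rose by 1.23 (SE 0.15, adjusted p = 0.0207 by blocked limma-voom). Klhdc1 rose by 1.19. Cd28, better known as the costimulatory receptor of T cells, was at 915, 755, 795 and 842 CPM against 569, 347, 431 and 459 CPM and rose by 0.90. Ptgs1, encoding cyclooxygenase 1, rose by 0.79 from 199 ± 15.7 to 344 ± 50.3 CPM.

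Interferon-stimulated genes, which cells turn on in response to interferon, lay higher with miR-29a. Of the 23 tested, 22 had a log2 fold change above 0, with a median of 0.58 against −0.01 over all genes. Ifi204 and Stat2 rose, against 0.255% of all genes. At an unadjusted p under 0.05 with the block, 15 were higher (9.19% of all genes) and 0 lower (11.8%). With the block DESeq2 called 5 higher (0.868% of all genes) and 0 lower, and the edgeR quasi-likelihood test 0. Stat2 itself was at 49.5, 47.1, 37.3 and 32.4 CPM with miR-29a and at 29.3, 24.0, 19.8 and 21.2 CPM with scramble, without overlap, and rose by 0.79 (SE 0.12, adjusted p = 0.0404 by blocked limma-voom; 0.256 without the block). Ifi204, encoding a nucleic acid sensor, was at 77.2, 59.2, 69.1 and 72.6 CPM against 49.3, 28.7, 39.7 and 50.9 CPM, without overlap. It rose by 0.72 (SE 0.12, adjusted p = 0.0466 by blocked limma-voom).

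The remaining 21 interferon-stimulated genes did not pass the test. Cmpk2, a mitochondrial nucleotide kinase, had a log2 fold change of 2.26 (SE 0.47) and an adjusted p of 0.0780 by blocked limma-voom. Oasl2, of the 2′,5′-oligoadenylate synthetase family, had 1.27 (SE 0.31), Trim30a 1.23 (SE 0.33) and the transcription factor gene Irf7 1.13 (SE 0.36). Irgm1 had 0.03 (SE 0.17) and Bst2 −0.10 (SE 0.25). The 4 libraries of each group did not overlap for 7 of the 23, all higher with miR-29a, as they did for 2.87% of all genes. The median of the list lay between 0.50 and 0.63 over 10 settings, and it was 0.50 in the blocked fit without pair 2, which called 0 members. Of the 21 inflammatory genes tested C3 and Lbp rose, against 0.255% of all genes. At an unadjusted p under 0.05 with the block 3 were higher and 6 lower, against 9.19% and 11.8% of all genes. The median of the 21 was −0.10 and ranged from −0.12 to −0.01 over the settings, and 0 were called with the block without pair 2. Tnf, encoding the cytokine TNF, had −0.10 (SE 0.18) and Il1a, encoding interleukin 1α, −1.13 (SE 0.39), both not called.

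Of the 11 tested protein genes encoded by the mitochondrial genome, 10 had a log2 fold change above 0 without the block, and 5 rose with it, against 0.255% of all genes: mt-Nd2, mt-Nd4 and mt-Nd4l of respiratory complex I, mt-Cytb of complex III and mt-Atp8 of the ATP synthase. The list's median was 0.79. In the blocked fit without pair 2, 13 such genes were tested, 3 were called higher, 2 lay below 0 and the median was 0.60. The gene mt-Nd2 was at 1341, 525, 677 and 607 CPM with miR-29a and at 726, 219, 289 and 305 CPM with scramble. Its groups overlapped, and replicate 1 was high with either mimic. The log2 fold change with the block was 1.11 (SE 0.13, adjusted p = 0.0207 by limma-voom). The groups of all 5 genes overlapped. Mitochondrially encoded genes took 2.50% ± 0.704 of all counts with miR-29a and 2.14% ± 0.493 with scramble (SD, n = 4). The medians of the same list against the same scramble libraries were 0.91 with miR-7a and 1.17 with miR-146a.

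**Figure D3:**
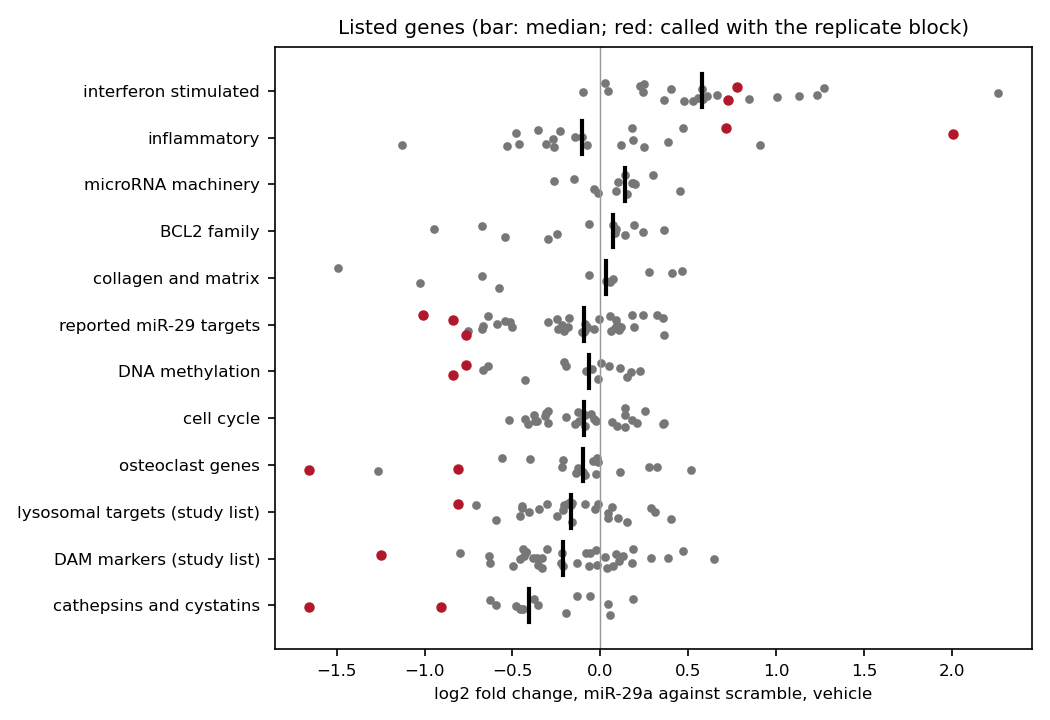
Log2 fold change of each tested member of 12 gene lists under vehicle (points, limma-voom without the block), with the list's median as a bar and genes called with the block in red. Of these lists the interferon-stimulated genes sit highest with a median of 0.58, and the cathepsins and cystatins lowest with −0.41.

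Of the 39 tested genes that are known as miR-29 targets in other cells, Cd93, Dnmt3a and Tdg fell, and at an unadjusted p under 0.05 with the block 11 were lower and 2 higher, against 11.8% and 9.19% of all genes. With the block DESeq2 called 6 lower, against 1.58%, the edgeR quasi-likelihood test called 0, and limma-voom without pair 2 called 0. The median was −0.09, with 26 of the 39 below 0. It was −0.08 with 22 below 0 without VEH_miR-29a replicate 2, and −0.20 with 30 below 0 after GC and length correction. Several of the best known did not pass the test, with overlapping groups. Mcl1, encoding an antiapoptotic protein, was at 751, 798, 719 and 696 CPM with miR-29a and at 881, 698, 1025 and 960 CPM with scramble, with a log2 fold change of −0.25 (SE 0.16) and 1 site of 8 bases. Cdc42, encoding a small GTPase, had −0.10 (SE 0.18) with 1 site, and the cell cycle kinase gene Cdk6 −0.09 (SE 0.20) with 5. The sign of Cdk6 turned when VEH_miR-29a replicate 1 or 2 was left out. Pik3r1, the regulatory subunit of phosphoinositide 3-kinase, had 0.32 (SE 0.20) with 1 site. Lpl, encoding lipoprotein lipase, was at 1369, 1443, 1746 and 1893 CPM against 1675, 1581, 1159 and 1569 CPM, with 0.10 (SE 0.18) and 1 site of 8 bases. Grn, encoding the lysosomal protein progranulin, had −0.50 (SE 0.34) with no site, in a range of −0.76 to −0.14 with 1 library left out. Among the list's other members, Hbp1, encoding a transcriptional repressor, had −0.59 (SE 0.14) with 2 sites.

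Collagen genes, the classical targets of this family, were mostly too low to test. Of 55 collagen and matrix genes 11 passed the filter on low counts, and 0 were called by limma-voom without or with the block. At an unadjusted p under 0.05 with the block 4 were lower and 0 higher, against 11.8% and 9.19% of all genes. With the block DESeq2 called 2 of the 11 lower, against 1.58% of all genes, and the edgeR quasi-likelihood test 0. Col4a1 had 2 to 23 counts a library, Col4a2 had 0 counts in all 8, and Sparc had 1 count in 1 library. Bace1, encoding the β-secretase, had at most 4 counts. Changes in these genes were not detectable at this depth, where 3 counts corresponded to 0.308 to 0.838 CPM. The median log2 fold change of the 11 tested was 0.03, with 5 below 0 and 6 above, the highest at 0.46. Among the 5, Col7a1 had a log2 fold change of −1.49 (SE 0.31) and Lamc1, encoding a laminin chain, −0.67 (SE 0.18), each without overlap between groups.

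The study named 28 lysosomal genes as targets in phagocytic microglia, pooled over miR-7a, miR-29a and miR-146a. Of these, Atp6v0d2 fell, with 9 lower and 1 higher at an unadjusted p under 0.05 with the block. The median of the 28 was −0.17, with 20 below 0. The blocked fit called 0 of the 28 without pair 2. With the block the edgeR quasi-likelihood test called 0 and DESeq2 3 lower, the latter against 1.58% of all genes. A fall was called for 0.289% of all genes, and 11.8% were lower at the unadjusted p. Gm2a, encoding a glycolipid transfer protein, had −0.71 (SE 0.23) and Lamp1, encoding a lysosomal membrane protein, −0.02 (SE 0.17). Of the 37 tested markers of disease-associated microglia (DAM) from the study's list, Itgax fell, with 13 lower and 1 higher at an unadjusted p under 0.05 with the block and a median of −0.21. That median was −0.10 after GC and length correction and −0.12 without VEH_miR-29a replicate 2. Apoe had −0.30 (SE 0.18), Trem2 −0.02 (SE 0.21) and Spp1 −0.22 (SE 0.23). The DAM list follows a published signature and the lysosomal list was drawn from sorted mouse microglia, neither from these libraries. The lower sum of macrophage markers with miR-29a, whose members went both ways, stands beside these values too. Of the 19 tested osteoclast genes Ctsk and Atp6v0d2 fell, with a median of −0.10 (−0.17 without VEH_miR-29a replicate 2), and 4 were lower and 1 higher at an unadjusted p under 0.05 with the block, against 11.8% and 9.19% of all genes. Acp5, encoding tartrate-resistant acid phosphatase, had −0.40 (SE 0.22). Of 30 cell cycle genes 0 were called by limma-voom without or with the block or by DESeq2 with the block, and their median was −0.09. At an unadjusted p under 0.05 with the block 10 of the 30 were lower and 2 higher, against 11.8% and 9.19% of all genes.

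Across all genes, the shift with seed sites was small. The median log2 fold change was −0.003 for the 8498 genes with an annotated 3′ UTR and no site, −0.02 for 1523 genes with 1 site, −0.01 for 250 with 2 and −0.10 for 84 with 3 or more. It was −0.07 for the 317 genes with an 8-base site, and −0.10, −0.16, 0.01 and −0.06 in pairs 1 to 4, so its sign differed between pairs. Of the 84 genes 53 (63.1%) lay below 0, and 4 of them (4.76%) fell with the block, namely Dnmt3a, Lsm11, Sept2 and Tdg. The median of the 84 was −0.11, −0.15, −0.10 and −0.06 in pairs 1 to 4, below the median of all genes in each. Genes with 1 or more sites had a median of −0.05, −0.07, 0.02 and −0.01 in the 4 pairs, so the sign differed between pairs. Against the same scramble libraries the 84 genes had −0.005 with miR-7a and 0.19 with miR-146a.

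**Figure D4:**
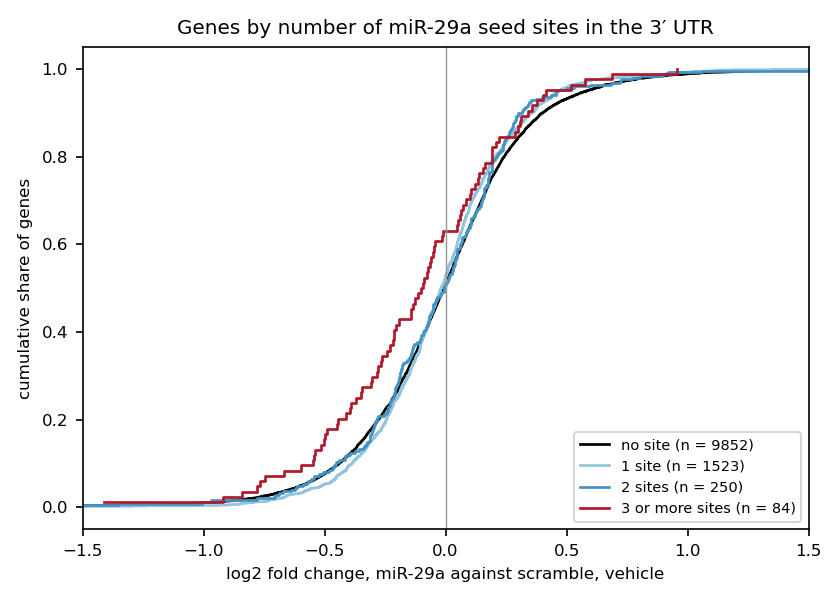
Cumulative share of genes by log2 fold change under vehicle, by number of miR-29a seed sites; the first curve holds all genes without a site, with or without an annotated 3′ UTR. The curve of genes with 3 or more sites lies to the left of the others below 0, at a median of −0.10, while those with 1 or 2 sites follow the genes without a site.

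The same mimic was also tested in 8 libraries under LPS (lipopolysaccharide, a bacterial cell wall component, at 10 ng/ml), which share no library with the vehicle groups. The same replicate numbers are used under LPS, and the labels do not say whether they mark experiments shared with vehicle. The LPS libraries are therefore not known to be a separate replication. There limma-voom without the block called 645 of 13463 genes (4.79%), 354 lower (2.63%) and 291 higher (2.16%). With the block it called 1392 (10.3%), 777 lower (5.77%) and 615 higher (4.57%), and the counts below are those without it unless stated. Of the 34 genes that fell under vehicle 32 were tested under LPS, 30 lay below 0 and 15 (46.9%) were called lower, against 2.89% of the 11612 genes tested in both. Of the 30 that rose 28 were tested, 23 lay above 0 and 7 (25.0%) were called higher, against 2.05%. With the block under LPS as well, 20 of the 32 falls (62.5%) were called lower and 1, mt-Rnr2, higher, against 6.41% and 4.70% of all genes, and 16 of the 28 rises (57.1%) were called higher and 1, C3, lower. The median under LPS without the block was −0.61 over the falls and 0.78 over the rises.

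Ctsk had a log2 fold change of −2.05 under LPS (SE 0.19, adjusted p = 0.000449 by limma-voom), Ctsf −1.37, Dnmt3a −1.31, Itgax −1.61, Ifi30 −1.33, Atp9a −2.92 and E330009J07Rik −1.94, all called. Cd93 had −0.86 and was not called in either fit, and Tdg had −0.48 and was called with the block alone (adjusted p = 0.0203 by blocked limma-voom). Of the rises, Stat2 had 1.37 and Klhl30 1.5, both called, while Lbp with 0.92, Cp with 0.87 and Rab44 with 1.16 were called with the block alone (adjusted p = 0.0185, 0.000613 and 0.0459 by blocked limma-voom). C3 had −0.46 (SE 0.13) under LPS, opposite to its rise under vehicle, and was called lower with the block (adjusted p = 0.00546 by blocked limma-voom; 0.0733 without). Agt had −0.16 (SE 0.48) and Cd28 0.19 (SE 0.13), both not called in either fit. Under LPS Agt was at 0.691 to 3.37 CPM with miR-29a and at 0.962 to 2.46 CPM with scramble, far below its vehicle level, so a change was hardly measurable there. Of the 23 interferon-stimulated genes 10 were called higher and 0 lower, and 20 and 0 with the block, with a median of 0.77. In the collagen and matrix list Col7a1 had −1.51 and Lamc1 −0.76, both called.

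**Figure D5:**
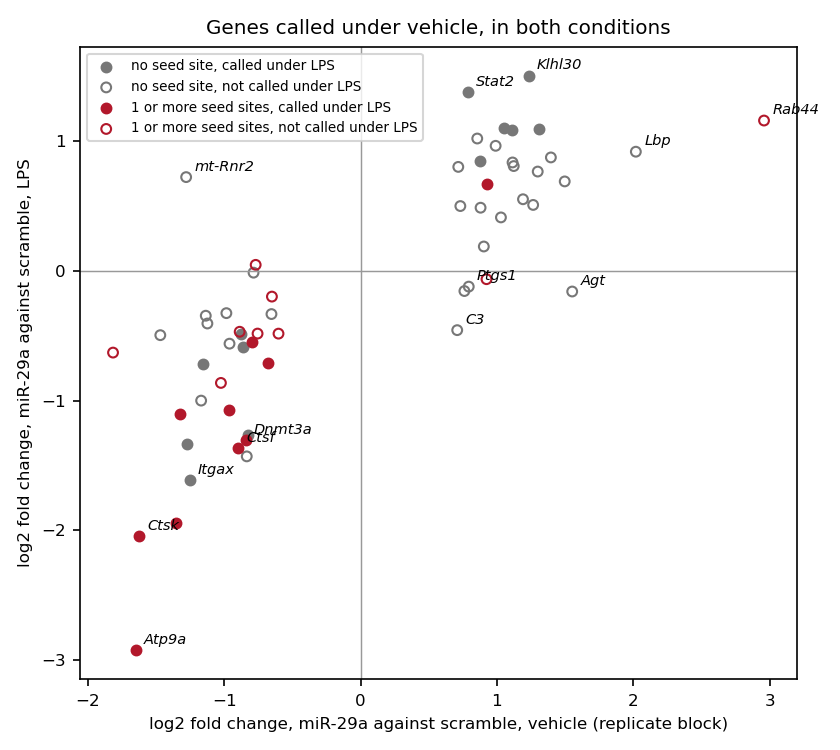
Log2 fold change of the 60 genes called with the block under vehicle and tested in both conditions, under vehicle (horizontal axis) and under LPS (vertical axis); red marks genes with a seed site and filled points genes called under LPS. Of the falls 30 of 32 lie below 0 under LPS, and of the rises 23 of 28 lie above 0.

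The difference between the 2 effects was tested directly in 16 libraries, as the effect under LPS minus that under vehicle. It was called for 2 of 12600 genes (0.0159%) without the block and for 17 (0.135%) with it. Of the 34 falls 0 were among them by limma-voom without or with the block, and of the 30 rises 1 was, Ptgs1 with the block. At an unadjusted p under 0.05 without the block, 12 of 33 tested falls and 10 of 28 tested rises differed, against 6.60% of all genes tested, though the vehicle values that chose these genes also enter the difference. Ptgs1 had 0.79 under vehicle and −0.12 under LPS, a difference of −0.94 (SE 0.17, adjusted p = 0.0378 by blocked limma-voom; 0.337 without the block). For C3 the difference was −1.19 with the block (SE 0.25, adjusted p = 0.0735 by limma-voom). Without the block it was −0.50 (SE 0.20) for Dnmt3a and −0.41 (SE 0.27) for Ctsk, and none of the 3 genes passed the test in either fit. A difference that missed the threshold does not show that the effects were alike.

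Values for the other mimics under vehicle are given side by side, since they use the same 4 scramble libraries. All values here, with each mimic, are from limma-voom without the block. The part of the high structural RNA in the VEH_miR-7a libraries, given above, in these values was not tested. Ctsk had a log2 fold change of −1.66 with miR-29a, −1.29 with miR-7a and 0.29 with miR-146a. Ctsf had −0.91, −0.80 and −0.14, and Cd93 −1.01, −1.06 and −0.06 in that order. Dnmt3a had −0.84, 0.04 and 0.27, Itgax −1.25, −0.12 and 0.46, and Tdg −0.77, 0.28 and 0.05. Agt had 1.61, −1.71 and −0.43, and Stat2 0.78, 0.32 and 0.07. Ifi204 had 0.72, 0.66 and 0.62, and the median of the interferon-stimulated genes was 0.58, 0.32 and 0.03. C3 had 0.72, 1.83 and 0.43, and the change with miR-7a passed the test (adjusted p = 0.0127 by limma-voom). Ctsk, Ctsf and Cd93 were thus below 0 with miR-7a as well, while Dnmt3a, Itgax and Tdg were near or above 0 there or with miR-146a. The other changes listed here with miR-7a or miR-146a did not pass the test without the block, and blocked fits of these 2 mimics are not given. The differences between mimics were not tested.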

How the data were processed

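RNA of BV-2 cells was extracted, depleted of ribosomal RNA and sequenced as total RNA libraries. The authors quantified it with the nf-core rnaseq workflow (GRCm38) and deposited 1 table of estimated counts for 45706 genes and 32 libraries, all of whose columns were matched to samples (0 unused). Per the labels, limma and edgeR were used on GRCm38, with no version given. In the deposited table, values with decimals had lost the decimal mark: of 109458 values of 20000 or more, 0.0155% end in 0 and 43.1% in the digits of a value just beside a whole number. For each of 590874 values above 0 the number of lost decimals was chosen by a model of the digits, the share of whole values and the gene's level in comparable libraries. Of these, 28.4% were given decimals, 92.8% of them 3, and 0.810% had a posterior under 0.9 and were called uncertain. Among restored values not beside a whole number, 8.77% had fewer than 3 decimals, against 10% for even last digits. The 810 genes that had such a value among these 8 libraries were left out and 33139 were below the filter on low counts, leaving 11757.

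Counts were rounded, filtered with filterByExpr, scaled by TMM and fitted with limma-voom (limma 3.58.1, edgeR 4.0.16, R 4.3.3), without a block, for the 2 groups compared. CPM values use TMM library sizes. The median SE of a log2 fold change was 0.222, and 0.158 with the block. The replicate numbers of the labels were taken to pair the libraries: deviations from the group means correlated at 0.179 to 0.489 within the 4 same-numbered pairs and at −0.264 to 0.116 between other numbers. Alternatives were DESeq2 1.42.0, the edgeR quasi-likelihood test, limma-trend, other scalings and filters, GC and length correction, and leaving out libraries. The blocked fits with limma-trend, without structural and mitochondrial genes, and at a posterior minimum of 0.99 were added after seeing the data. Scripts were tested on simulated data.

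Named genes were those called without the block, the 12 largest falls and rises called with it in 4 of 4 pairs, called list members, 15 fixed genes and the 5 smallest p-values. Lists and members were chosen with earlier results of these data known.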

Additional observations from a re-analysis of the deposited data

Results flagged for a closer look

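In 5 of the 86 groups of 4 libraries examined, over the 41 named genes and the shares of structural and mitochondrial counts, 1 library stood apart from the other 3 by Dixon's test at the 95% level, which chance does in about 5% of groups. Klhl30 was at 58.3 CPM in VEH_miR-29a replicate 2 and at 40.9 to 43.6 CPM in the others. In VEH_scramble the highest library was replicate 4 for Gm26323 (12.9 CPM, others 2.50 to 4.05) and Gm10293 (31.8 CPM, others 13.7 to 15.0), replicate 1 for Ms4a4a (6.4 CPM, others 2.77 to 3.22) and replicate 3 for Dynlt1a (33.6 CPM, others 18.9 to 19).

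The effect of miR-29a differed between LPS and vehicle for 2 genes by limma-voom without the block, Appl2 (−1.13, adjusted p = 0.0189) and Myom3 (−1.40, adjusted p = 0.0189). Appl2, an endosomal adaptor, had a log2 fold change of 0.21 under vehicle and −0.89 under LPS. Myom3, best known as a muscle sarcomere protein, had 0.16 under vehicle and −1.19 under LPS.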

How the results depend on the processing

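The direction of the 64 genes called with the replicate block was kept, where tested, in the other fits with the block, with DESeq2, with all 32 libraries and after GC and length correction. Without structural and mitochondrial genes 57 of them were tested, and 60 at a posterior minimum of 0.99. The number of genes called under vehicle was 1 without the block. It was 64 with the block, 2 without the filter on low counts, 0 with the edgeR quasi-likelihood test (1257 genes at an unadjusted p under 0.05) and with limma-trend (1214), 80 with all 32 libraries in 1 fit, 22 with the values as deposited, 100 with DESeq2 and 29 with limma-trend after GC and length correction. With the block it was 23 with the edgeR quasi-likelihood test, 288 with DESeq2, 25 with limma-trend, 253 with limma-trend after GC and length correction, 85 without structural and mitochondrial genes and 134 at a posterior minimum of 0.99. Leaving out 1 library gave 0 to 1, and leaving out a pair with the block gave 0 (pair 1), 26 (pair 2), 9 (pair 3) and 3 (pair 4). After GC and length correction with the block, 71 of 152 falls (46.7%) and 6 of 101 rises (5.94%) had a seed site, and with DESeq2 and the block 50 of 186 (26.9%) and 12 of 102 (11.8%).

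Under LPS the count of 645 became 1392 with the block, 18 as deposited, 1048 with DESeq2, 1483 with the block at a posterior minimum of 0.99, and 169 to 726 with 1 library left out. For the difference between LPS and vehicle the count of 2 became 17 with the block, 5 without the filter, 6 as deposited, 16 with the block at a posterior minimum of 0.99, and 0 to 3 with 1 library left out. The difference in the share of structural RNA turned sign when VEH_miR-29a replicate 1 (0.354), 3 (0.223) or 4 (1.16) or VEH_scramble replicate 2 (0.332) was left out, with a range of −3.61 to 1.16 percentage points. The median of genes with seed sites stayed within −0.03 to 0.00 with 1 library left out. With the values as deposited the log2 fold change turned sign for Dynlt1a (0.15), E330009J07Rik (1.36), Stat2 (−1.95), Dnmt3b (2.03), Tet2 (3.13), Cdc42 (2.90), Cdk6 (0.11), Pik3r1 (−4.51) and Grn (1.00), a setting that leaves the decimal marks lost. Cdk6 also turned without VEH_miR-29a replicate 1 (0.021) or 2 (0.065) and with the block without replicate 2 (0.066), in a range of −0.25 to 0.065 with 1 library left out. Lpl turned without VEH_scramble replicate 3 (−0.014), in a range of −0.014 to 0.19, and with the block without replicate 3 (−0.071). Apart from the decimal marks, the causes were not tested. Totals of 3.58 to 9.73, in units of 1e6 counts, limit what can be said of genes near 1 CPM.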

Other observations

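Of the 13 tested genes of the microRNA machinery 0 were called by limma-voom without or with the block or by DESeq2 with the block. At an unadjusted p under 0.05 with the block 1 was higher and 0 lower, against 9.19% and 11.8% of all genes. The median of these 13 was 0.14 and ranged from −0.08 to 0.18 over 10 settings. Ago2, which encodes the slicing Argonaute protein and has 4 miR-29a seed sites, had a log2 fold change of −0.01 (SE 0.26) under vehicle, and Tarbp2, a partner of Dicer, had 0.45 (SE 0.23). Of the 13 tested genes of the BCL2 family, which set the threshold for apoptosis, 0 were called by limma-voom without or with the block. With the block DESeq2 called 1 lower, against 1.58% of all genes, and the edgeR quasi-likelihood test 0. At an unadjusted p under 0.05 with the block 3 were lower and 0 higher, against 11.8% and 9.19% of all genes. The median of the family was 0.07, with a range of −0.06 to 0.11 over the settings. Bak1, a pore-forming member that promotes apoptosis, had −0.67 (SE 0.17) with 1 site and no overlap between groups, and Bcl2 had 0.36 (SE 0.21).

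Of the 30 genes that rose with the block 8 (26.7%) lie on chromosome 1, which holds 6.56% of the genes tested. So do 4 of the 34 that fell (11.8%). The 8 rises are Capn2, Cd28, Ifi204, Klhl30, Nab1, Nabp1, Ptprv and Raph1. Capn2, encoding the protease calpain 2, was at 39.9, 35.5, 36.5 and 32.8 CPM with miR-29a against 20.6, 19.7, 17.1 and 13.9 CPM with scramble. Of all genes tested on chromosome 1, 5.45% were higher in each miR-29a library than in each scramble library, against 2.87% of all genes, and their median log2 fold change was 0.03. The chromosome was looked at after the values were seen, and no test was made.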
